A study of Mus musculus with 21 samples.

Results

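Mixed tumours, grown from Py117 and Py8119 cells implanted together at a 1:1 ratio, were compared with tumours grown from Py8119 cells alone. The comparison used 10 of the 21 arrays of the series, 5 mixed and 5 Py8119 tumours, all identified by their titles, and covered 22180 genes. Both lines were derived from transgenic MMTV-PyMT mice, in which the mouse mammary tumour virus promoter drives the polyomavirus middle T oncogene in mammary epithelium. Each tumour came from 1000000 cells placed orthotopically in mammary fat pad 4 in equal parts of PBS and matrigel. The series calls Py117 clones sensitive and Py8119 clones resistant in its account of immune responses to radiation. No tumour here was treated, and all were taken on the day on which radiation would usually have been given. The strain, age and sex of the host mice were not given in the sources used here. Replicates are labelled as biological, without saying that each came from its own mouse, so p-values measure the spread between these samples. Py117 tumours (5 arrays) and cultures of each line (3 arrays each) served as outside references and entered neither the differences nor their errors.

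As background, epithelial carcinoma cells are joined by E-cadherin and Epcam and splice many transcripts through Esrp1, and cells that have passed through an epithelial-mesenchymal transition lose these genes and carry vimentin and N-cadherin. Interferon-gamma, made mainly by T cells and natural killer cells, switches on guanylate-binding proteins, immunity-related GTPases, antigen presentation genes and the chemokines that draw in more T cells. Type I interferons switch on a related set of antiviral genes. In mammary tumours both tumour cells and host cells can respond to these signals.

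The promoters below belong to 4 of the genes that were higher in mixed tumours. They are shown because 22 of 24 type I interferon and 16 of 19 interferon-gamma response genes were higher, against 2.90% of all genes. Each window runs from 250 bases before to 50 bases after the annotated start, from RefSeq on GRCm38.p6, and capitals mark GAAANNGAAA or its reverse complement, the core letters of an interferon-stimulated response element. Both motif and genes were chosen after values were seen. Igtp and Irgm2 encode immunity-related GTPases, and their windows lie at chr11:58199306-58199605 and chr11:58214727-58215026, both on the plus strand. Ifit1, an antiviral RNA-binding protein, lies at chr19:34640639-34640938 on the plus strand, and Cxcl10, a T cell chemokine, at chr5:92348840-92349139 on the minus strand.
Igtp: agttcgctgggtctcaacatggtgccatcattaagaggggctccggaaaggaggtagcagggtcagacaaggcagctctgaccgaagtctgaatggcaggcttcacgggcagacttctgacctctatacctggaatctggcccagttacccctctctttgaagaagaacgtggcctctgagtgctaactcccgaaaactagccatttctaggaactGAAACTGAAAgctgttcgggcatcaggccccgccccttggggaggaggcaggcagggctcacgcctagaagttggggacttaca
Irgm2: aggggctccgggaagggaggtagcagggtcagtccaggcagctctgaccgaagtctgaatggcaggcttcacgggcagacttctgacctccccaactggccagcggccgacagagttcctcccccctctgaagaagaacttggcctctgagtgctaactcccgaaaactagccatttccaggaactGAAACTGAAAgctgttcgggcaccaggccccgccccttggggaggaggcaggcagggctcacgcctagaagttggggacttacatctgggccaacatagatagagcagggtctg
Ifit1: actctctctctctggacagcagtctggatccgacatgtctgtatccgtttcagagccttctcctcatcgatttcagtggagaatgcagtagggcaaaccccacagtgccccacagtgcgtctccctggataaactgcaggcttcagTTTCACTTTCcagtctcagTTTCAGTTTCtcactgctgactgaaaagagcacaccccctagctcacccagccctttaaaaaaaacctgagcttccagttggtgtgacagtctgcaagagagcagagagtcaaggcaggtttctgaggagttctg
Cxcl10: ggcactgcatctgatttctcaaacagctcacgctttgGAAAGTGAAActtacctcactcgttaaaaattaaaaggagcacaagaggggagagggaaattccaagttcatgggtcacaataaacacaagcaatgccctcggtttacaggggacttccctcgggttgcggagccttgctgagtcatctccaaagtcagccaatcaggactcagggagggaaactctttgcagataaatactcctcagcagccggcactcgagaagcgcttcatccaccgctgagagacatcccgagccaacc
Igtp and Irgm2 each had 1 match, at positions -34 and -64 from the start, and both windows share 61 identical bases shortly after it. Ifit1 had 2 matches, the first at position -104, and Cxcl10 had 1 at -213. Over both strands, 3.99% of 27025 genes in the promoter table had such a match in the same window. Among list genes found in that table, it was present in 8 of 12 interferon-gamma response genes, 10 of 17 type I interferon response genes, 4 of 14 MHC class I genes, 1 of 9 MHC class II genes, 1 of 19 epithelial genes and 0 of 10 T cell genes. Another motif searched, the GAS-like letters TTCNNNGAA, was present in 9.55% of the 27025 genes. It was found in 6 of 12 interferon-gamma response, 2 of 17 type I interferon response and 2 of 14 MHC class I genes. For MHC class II, epithelial and T cell genes the counts were 1 of 9, 2 of 19 and 2 of 10. A match is a description of the letters and not a binding site.

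Mixed tumours differed from Py8119 tumours mostly by gain. The genes called higher included 15 of 29 epithelial, 16 of 19 interferon-gamma response and 8 of 15 T cell genes, whereas few genes were called lower. Of 22180 genes, 643 were higher in mixed tumours (2.90%) and 111 lower (0.500%) at a Benjamini-Hochberg adjusted p under 0.05 in limma, and 85.3% of calls were thus upward. That share was 74.0% after quantile normalization and 65.7% with array medians centred. Among higher genes the median difference was 0.75 on the log2 scale, 194 differed at least 2-fold and 41 at least 4-fold. Among lower genes the median was -0.43 and 1, the clock gene Per1, reached 2-fold. The 5 mixed and 5 Py8119 arrays did not overlap for 578 of the higher and 94 of the lower genes. Calls and overlap rest on the same arrays, so these counts add no separate support. Overlap was not counted over uncalled genes. The count of lower genes was 53 without mixed tumour 2, 66 without mixed tumour 3, 45 without Py8119 tumour 2 and 69 without Py8119 tumour 5.

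Arrays correlated across genes with r of 0.989 to 0.994 among mixed tumours, 0.990 to 0.994 among Py8119 tumours and 0.979 to 0.991 between them. Array medians lay between 5.44 and 5.52, and the median gene SD was 0.15 in each group. The level taken as background, 5.27, is the 95th percentile of 1394 olfactory and vomeronasal receptor genes, of which 3 were called higher and 10 lower. Both group means lay under it for 41 of the higher and 37 of the lower genes, compared with 8113 of all genes. Of the higher genes, 107 had a Py8119 tumour mean under background, which bounds the size of their differences. Precision is set by the number of arrays. In bulk tissue fewer cells of a type and less RNA per cell cannot be told apart.

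Genes of the Py117 line were defined in culture, on arrays outside the comparison. Of the 22180 genes, 313 (1.41%) were called in culture and at least 2 log2 units higher in Py117 cells, and 119 (0.537%) were likewise higher in Py8119 cells. In mixed tumours, 164 of the 313 Py117 culture genes were higher and 0 lower, with a median difference of 0.53, against -0.03 over all genes. The mean log2 level of the 313 was 6.64, 7.0, 6.96, 6.92 and 6.88 in mixed tumours 1 to 5 and 6.16 to 6.23 in Py8119 tumours, so the groups did not overlap. Of the 119 Py8119 culture genes, 2 were higher and 1 lower, with a median difference of -0.04. Their mean level was 8.19 to 8.29 in mixed and 8.21 to 8.31 in Py8119 tumours, which overlapped, and 6.55 to 6.78 in Py117 tumours. Calls on Py117 culture genes followed their level in Py117 tumours. Of 67 genes with a Py117 tumour level under 7, 5 were higher in mixed tumours, as were 92 of 150 between 7 and 9 and 67 of 96 at 9 or above.

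**Figure D1:**
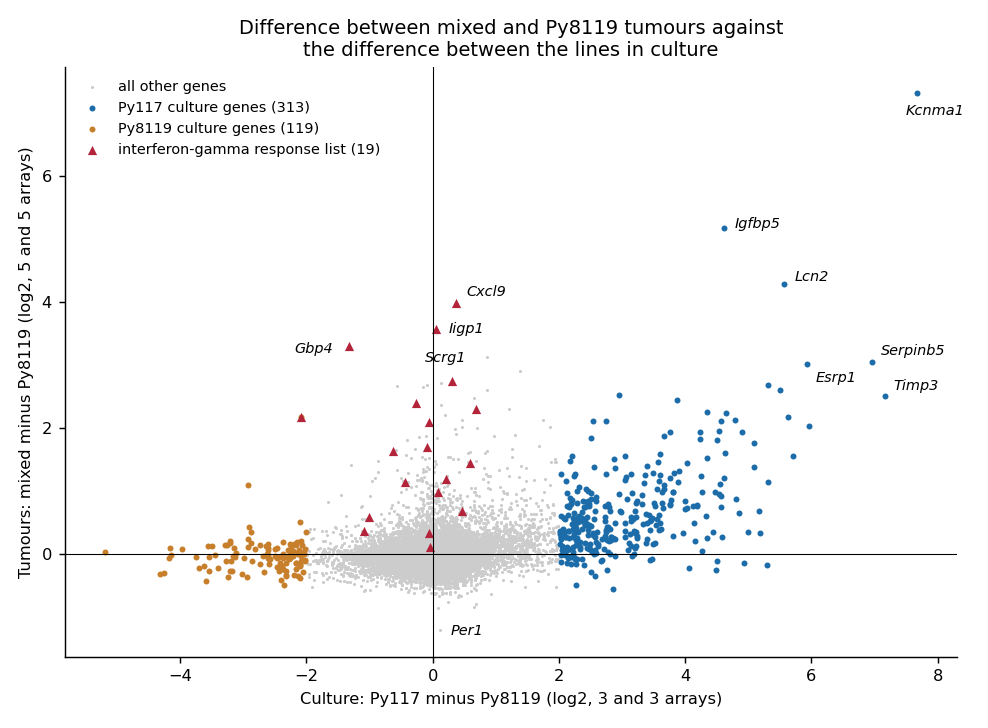
Each point is a gene, with its difference between the cultures (Py117 minus Py8119, log2, 3 and 3 arrays) on the horizontal axis and between mixed and Py8119 tumours (log2, 5 and 5 arrays) on the vertical axis. Blue points are the 313 Py117 culture genes, which lie mostly above 0, orange points the 119 Py8119 culture genes, which lie around 0, and red triangles 19 interferon-gamma response genes, which all lie above 0 on the vertical axis.

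All genes were also sorted by their culture signal. Genes under background in both cultures were set apart first. Of 923 other genes called and at least 2-fold higher in Py117 culture, 281 were higher in mixed tumours and 1 lower. They made up 43.7% of the higher calls and 4.16% of all genes. Another 124 higher calls were on genes under background in both cultures. A further 231 were on genes above background in either culture without a called difference of at least 2-fold. The remaining 7 were on genes called and at least 2-fold higher in Py8119 culture. Genes silent in culture were defined as those under background in both cultures and at least 2 log2 units above both in Py117 tumours. They can come from host cells or from tumour cells that express them only in the animal, and the rule does not separate these. Genes that rise only in Py8119 tumours cannot enter, so the counts by direction are one-sided, and a high Py117 tumour level is set by the rule. Of 201, 69 were higher in mixed tumours and 0 lower, with a median of 0.38. Their mean level was 7.39, 7.59, 7.96, 7.57 and 7.38 in mixed tumours 1 to 5 and 6.86 to 7.12 in Py8119 tumours, so the groups did not overlap, and 8.04 in Py117 tumours.

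Many epithelial genes were higher in mixed tumours, and which cells expressed them was not tested. Of 29 measured epithelial markers, 15 were higher in mixed tumours and 0 lower, with a median difference of 0.61. Epcam, an epithelial adhesion molecule, had log2 levels of 7.24, 7.81, 8.39, 7.61 and 7.65 in mixed tumours and 4.38, 5.39, 5.51, 5.09 and 5.30 in Py8119 tumours. Every mixed tumour lay above every Py8119 tumour, most of which were at or near background, and the difference was 2.61 ± 0.22 (SE, n = 5 and 5, limma adjusted p = 1.03e-05). Esrp1, an epithelial splicing regulator, had levels of 7.32, 8.18, 7.97, 7.94 and 7.93 against 4.74 to 4.96, with mixed tumour 1 the lowest of its group (difference 3.02 ± 0.13, adjusted p = 1.05e-08). The serpin Serpinb5 (3.05 ± 0.13), the protease inhibitor Spint2 (2.24 ± 0.15), the membrane protease St14 (2.18) and Cdh1, which encodes E-cadherin (1.38 ± 0.19, adjusted p = 0.000845, and 0.87 with the mean of all probe sets), were also higher. Cldn4, Krt19 and Ovol2 had differences of -0.09, -0.08 and -0.05. Krt8, a luminal keratin that both lines express in culture, had levels of 9.54 to 9.87 in mixed and 9.44 to 9.70 in Py8119 tumours and was not called (0.17 ± 0.09, adjusted p = 0.306).

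Luminal regulators, basal genes and milk genes differed in how many members were called. Of 10 luminal regulators, 5 were higher. They were the pioneer factor Foxa1 (1.67 ± 0.14), the receptor Erbb3 (1.27 ± 0.10), the transcription factors Tfap2c (1.26 ± 0.16) and Elf5 (0.71 ± 0.08), and the receptor Kit (0.51 ± 0.11), which mast cells also carry and which was not called without mixed tumour 3 or 5 or Py8119 tumour 1 or 5. Gata3, Pgr and Esr1 had differences of -0.09, 0.00 and 0.10. Of 16 basal and myoepithelial genes, 1 was higher, the integrin Itgb4 (0.88 ± 0.16, adjusted p = 0.0061), and the list median was 0.02. Of 12 milk and secretory genes, 3 were higher, namely the iron-binding protein Lcn2 (4.28 ± 0.14), the casein Csn3 (2.01 ± 0.24) and the protease inhibitor Slpi (1.95 ± 0.18). The caseins Csn1s1 and Csn2 and the whey protein Wap had differences of -0.02, 0.06 and -0.08.

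The 3 largest differences were on Py117 line genes. A probe set assigned to Kcnma1, a calcium-activated potassium channel, had levels of 13.36, 13.43, 13.51, 13.44 and 13.43 in mixed and 5.94, 5.87, 5.93, 6.71 and 6.18 in Py8119 tumours (difference 7.31 ± 0.14, adjusted p = 8.36e-13). The Py117 tumour mean was 13.38, and both lay close to the brightest signal of the mixed arrays, 13.64 to 13.76. So near the top of the scale, equal levels in mixed and Py117 tumours and the exact size of the difference cannot be read as such, and what this probe set detects was not checked against the array design. The other Kcnma1 probe set had means of 4.00 and 4.13 in mixed and Py8119 tumours, so the difference rests on 1 probe set and was 3.59 with the mean of both. Igfbp5, which binds insulin-like growth factors, had levels of 11.01, 11.43, 11.05, 11.38 and 11.35 against 5.72 to 6.59 (5.18 ± 0.15, 36.2-fold). Lcn2 had levels of 10.65 to 11.44 against 6.60 to 7.03. Both stayed below Py117 tumours, whose means were 13.15 and 12.68. Timp3, an inhibitor of metalloproteinases, was higher by 2.51 ± 0.25, Scrg1 by 3.13 ± 0.18 and Capn6, a calpain-like protein, by 2.91 ± 0.11. The last pair were 5.30 and 6.04 in Py117 culture and 10.33 and 11.76 in Py117 tumours.

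**Figure D2:**
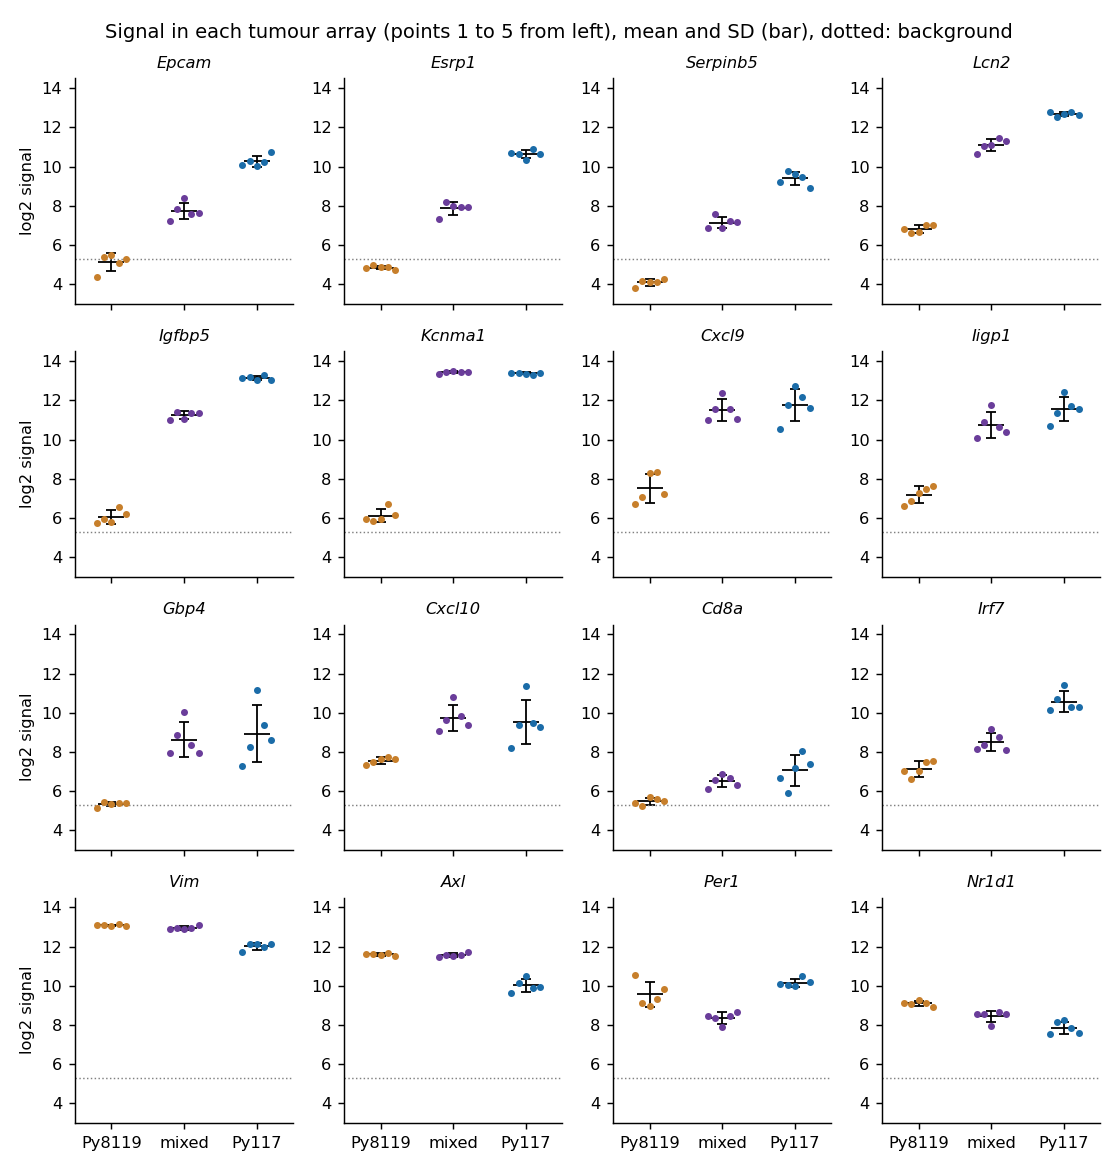
Points are log2 signals of single tumour arrays for 16 genes chosen partly after values were seen, ordered from replicate 1 at the left of each group, with the mean and SD as bars and background (5.27) dotted. In the upper rows mixed tumours lie above Py8119 tumours without overlap, the Kcnma1 probe set lies near the top of the scale in mixed and Py117 tumours, Vim and Axl overlap between mixed and Py8119 tumours, and Per1 lies below both unmixed groups.

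The size of the Py117 contribution was described by the place of each mixed tumour between the means of Py8119 tumours (0%) and Py117 tumours (100%) on the linear signal scale, as the median over genes. For the 313 Py117 culture genes it was 7.0% in mixed tumour 1, 16.3% in mixed tumour 2, 15.1% in mixed tumour 3, 13.8% in mixed tumour 4 and 13.0% in mixed tumour 5 (13.1% ± 3.6, SD, n = 5). It was 28.6% on the log2 scale. The place is a share of signal and not a count of cells, and it has no test because it uses the same Py8119 tumours as its zero. The implant held the lines in equal parts, and by this measure every mixed tumour lay nearer to Py8119 tumours than to Py117 tumours. Using the 243 genes at least 1 log2 unit higher in Py117 than in Py8119 tumours, a choice made after values were seen that also holds for the lists below, the range was 7.5% to 16.3%, and for 22 epithelial genes it was 8.2% to 17.0%.

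**Figure D3:**
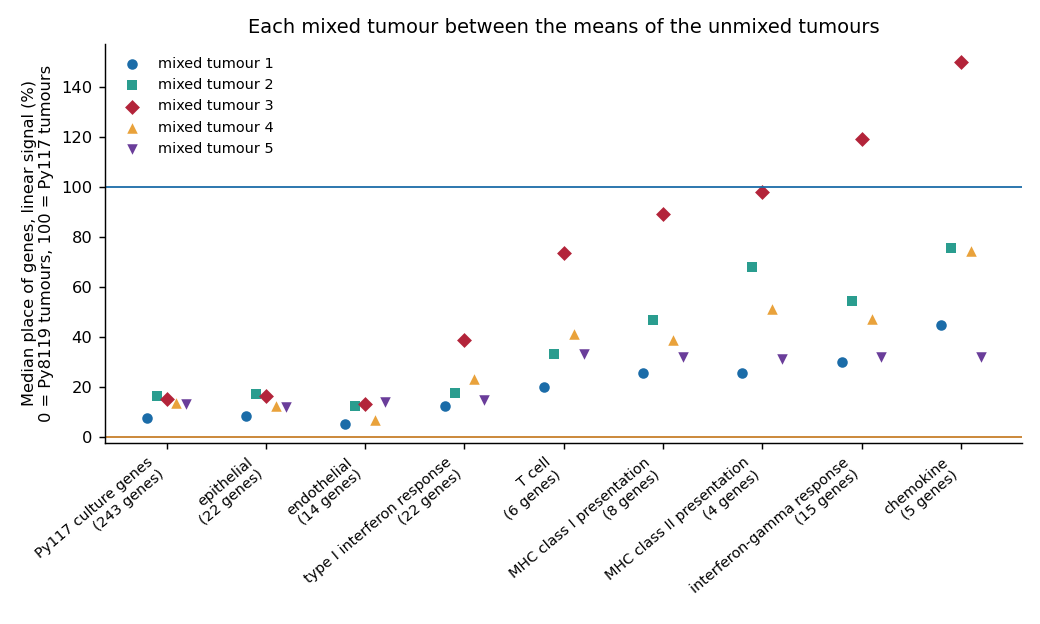
Each symbol is a mixed tumour, placed between the mean signals of Py8119 tumours (0%, orange line) and Py117 tumours (100%, blue line) as the median over genes of a list, in percent on the linear scale. Py117 culture genes, epithelial and endothelial genes lie under 20% in each tumour, whereas interferon-gamma response genes lie between 29.9% and 119% and mixed tumour 3 (red diamonds) is the highest for each interferon, MHC, T cell and chemokine list.

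Interferon-gamma response genes were the list with the highest median difference. Of 19, 16 were higher and 0 lower, with a median of 1.64. Cxcl9, a chemokine that attracts T cells through CXCR3, had levels of 10.98, 11.58, 12.39, 11.54 and 11.05 in mixed tumours and 6.73, 7.06, 8.29, 8.33 and 7.20 in Py8119 tumours. All mixed tumours were higher by a wide margin (3.99 ± 0.33, 15.9-fold, adjusted p = 7.07e-06), and their mean of 11.51 compares with 11.78 in Py117 tumours. In culture Cxcl9 was near background in both lines, at 6.00 and 5.63. Iigp1, an immunity-related GTPase, had levels of 10.07, 10.89, 11.76, 10.64 and 10.38 against 6.61 to 7.64 (3.57 ± 0.27). Igtp had levels of 8.86, 9.62, 10.82, 9.62 and 9.30 against 6.77 to 7.61 (2.40 ± 0.28), and Irgm2 8.31, 9.04, 10.04, 9.07 and 8.70 against 6.41 to 7.0 (2.30 ± 0.25). In these 3 GTPase genes mixed tumour 3 was the highest and mixed tumour 1 the lowest of the group.

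The guanylate-binding proteins Gbp4 (3.30 ± 0.31), Gbp8 (2.75 ± 0.30), Gbp5 (2.09), Gbp3 (1.70) and Gbp7 (1.44) were higher too, whereas Gbp6 had a difference of 0.12 and was not called. These genes are close paralogs, and signal could be shared between their probes. Ido1 (0.34), which degrades tryptophan, and the feedback inhibitor Socs1 (0.37) were not called. Ifng itself, the ligand, had a difference of 0.65 and was not called. The mean level of the list was 7.85, 8.31, 9.19, 8.33 and 8.01 in mixed tumours 1 to 5 and 6.40 to 6.81 in Py8119 tumours. It was 8.67 in Py117 tumours and 5.27 and 5.50 in cultures of Py117 and Py8119 cells. For the 15 genes with a parental difference, the place was 29.9%, 54.4%, 119%, 47.3% and 32.0%, above that of Py117 culture genes in each mixed tumour. All places share the same unmixed means, and the unmixed tumours also chose the genes. This is thus a description without a test.

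Type I interferon response genes were higher in nearly every case but by less. Of 24, 22 were higher and 0 lower, with a median of 0.81. The count was 11 in 1 fit of all 15 tumour arrays. Irf7, the transcription factor that amplifies this response, had levels of 8.16, 8.35, 9.16, 8.78 and 8.10 in mixed and 7.03, 6.59, 7.01, 7.51 and 7.52 in Py8119 tumours (1.38 ± 0.21, adjusted p = 0.00173). The groups did not overlap, and both lay below the Py117 tumour mean of 10.57. The nucleic acid sensor Zbp1 (1.62 ± 0.27), the feedback regulator Usp18 (1.43 ± 0.22), Ifit1 (1.30 ± 0.22) and the ubiquitin-like Isg15 (1.10 ± 0.19) were higher, and Ifit3 (0.20) and Mx2 (0.50) were not called. The place of 22 of these genes was 12.4%, 17.5%, 38.8%, 23.2% and 14.9%, nearer to that of Py117 culture genes than the interferon-gamma list.

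Antigen presentation genes were higher in part. Of 17 MHC class I genes, 8 were higher, with a median of 0.66. Tap1, which pumps peptides into the endoplasmic reticulum, had levels of 9.08, 9.68, 10.43, 9.64 and 9.41 against 7.83 to 8.34, without overlap (1.61 ± 0.19, adjusted p = 0.000248). Nlrc5, the transactivator of class I genes (1.30 ± 0.17), the immunoproteasome subunit Psmb9 (1.20 ± 0.17), H2-T23 (1.39 ± 0.23) and the classical heavy chain H2-K1 (0.89 ± 0.16) were higher, whereas the light chain B2m (0.23) was not called. Of 12 MHC class II genes, 6 were higher. H2-Ab1, a class II beta chain, had levels of 11.62, 12.24, 12.47, 12.06 and 11.67 against 10.67 to 11.27 (1.04 ± 0.17, adjusted p = 0.00207), and H2-Aa was higher by 1.14 ± 0.16. Ciita, the class II transactivator, was higher by 0.69 ± 0.16, but its adjusted p of 0.0317 ranged up to 0.113 over the alternatives. Ciita was not called without mixed tumour 2 or 4 or Py8119 tumour 1, 2 or 3. In culture H2-Aa was under background in both lines, at 4.53 and 4.92.

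Part of the T cell and natural killer genes passed as well. Of 15 T cell genes, 8 were higher and 0 lower, all 15 differences were above 0, and the median was 0.59. Over all genes, 9264 of 22180 differences were above 0. Cd3g, a subunit of the T cell receptor complex, had levels of 6.66, 7.17, 7.82, 7.14 and 7.21 in mixed and 5.49, 5.19, 6.03, 5.56 and 5.41 in Py8119 tumours, without overlap (1.66 ± 0.19, adjusted p = 0.000136). Cd8a, the coreceptor of cytotoxic T cells, had levels of 6.10, 6.54, 6.89, 6.67 and 6.30 against 5.25 to 5.69 (1.01 ± 0.14, adjusted p = 0.000652). Cd8b1 (0.79 ± 0.17), Cd3e (0.89 ± 0.15), Cd4 (0.59 ± 0.11) and the interleukin-7 receptor Il7r (0.82 ± 0.19) followed, while Cd3d (0.59 ± 0.15, adjusted p = 0.0511) did not pass. Cd8b1 was not called without mixed tumour 2 or Py8119 tumour 2, 4 or 5, nor Il7r without mixed tumour 4 or 5 or Py8119 tumour 1 or 2, and Cd3d was called without mixed tumour 5 or Py8119 tumour 3. The count of 8 was 5 without Py8119 tumour 1, 4 without Py8119 tumour 2 and 1 in the fit of 15 tumour arrays. The place of 6 T cell genes was 19.9%, 33.1%, 73.5%, 41.2% and 33.0%.

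Of 18 cytotoxic and natural killer genes, 9 were higher, and the count was 4 in the fit of 15 tumour arrays. Klrk1, the activating receptor NKG2D, had levels of 7.21, 6.91, 7.99, 7.41 and 6.99 against 5.76 to 6.12 (1.35 ± 0.17, adjusted p = 0.000331). Granzyme A (Gzma, 1.17 ± 0.25), the chemokines Xcl1 (1.12 ± 0.24) and Ccl5 (1.10 ± 0.20) and the receptors Klrc1 (1.05) and Klrd1 (0.86) were higher, although Gzma was not called without Py8119 tumour 1 or 2. Granzyme B (Gzmb, 0.75 ± 0.27, adjusted p = 0.154) and perforin (Prf1, 0.51) were not called. Klrk1, Gzma and Ccl5 had mixed tumour means of 7.30, 7.82 and 10.24 and Py117 tumour means of 7.19, 7.47 and 10.13.

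Among 18 genes of regulatory T cells and checkpoints, 7 passed as higher, and the count was 4 without mixed tumour 2, Py8119 tumour 1 or Py8119 tumour 5 and 1 in the fit of 15 tumour arrays. Cd274, which encodes PD-L1, had levels of 7.86, 8.42, 9.78, 8.55 and 7.77 against 7.15 to 7.35 (1.21 ± 0.28, adjusted p = 0.0313, with 0.00478 to 0.0998 over the alternatives). Its spread in mixed tumours (SD 0.80) came with mixed tumour 3, while Py8119 tumours lay close together (SD 0.07). The coinhibitor Ctla4 (0.74 ± 0.13), the interleukin-2 receptor Il2ra (0.71 ± 0.12), the costimulator Icos (0.68 ± 0.14) and Pdcd1, which encodes PD-1 (0.41 ± 0.09, adjusted p = 0.0279), were higher. Cd274 was called without mixed tumour 1, 3 or 5 but not without any other single array, and Pdcd1 only without mixed tumour 4 or Py8119 tumour 2. Foxp3 (0.30 ± 0.11, adjusted p = 0.168) and Lag3 (0.13 ± 0.09) were not called.

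**Figure D4:**
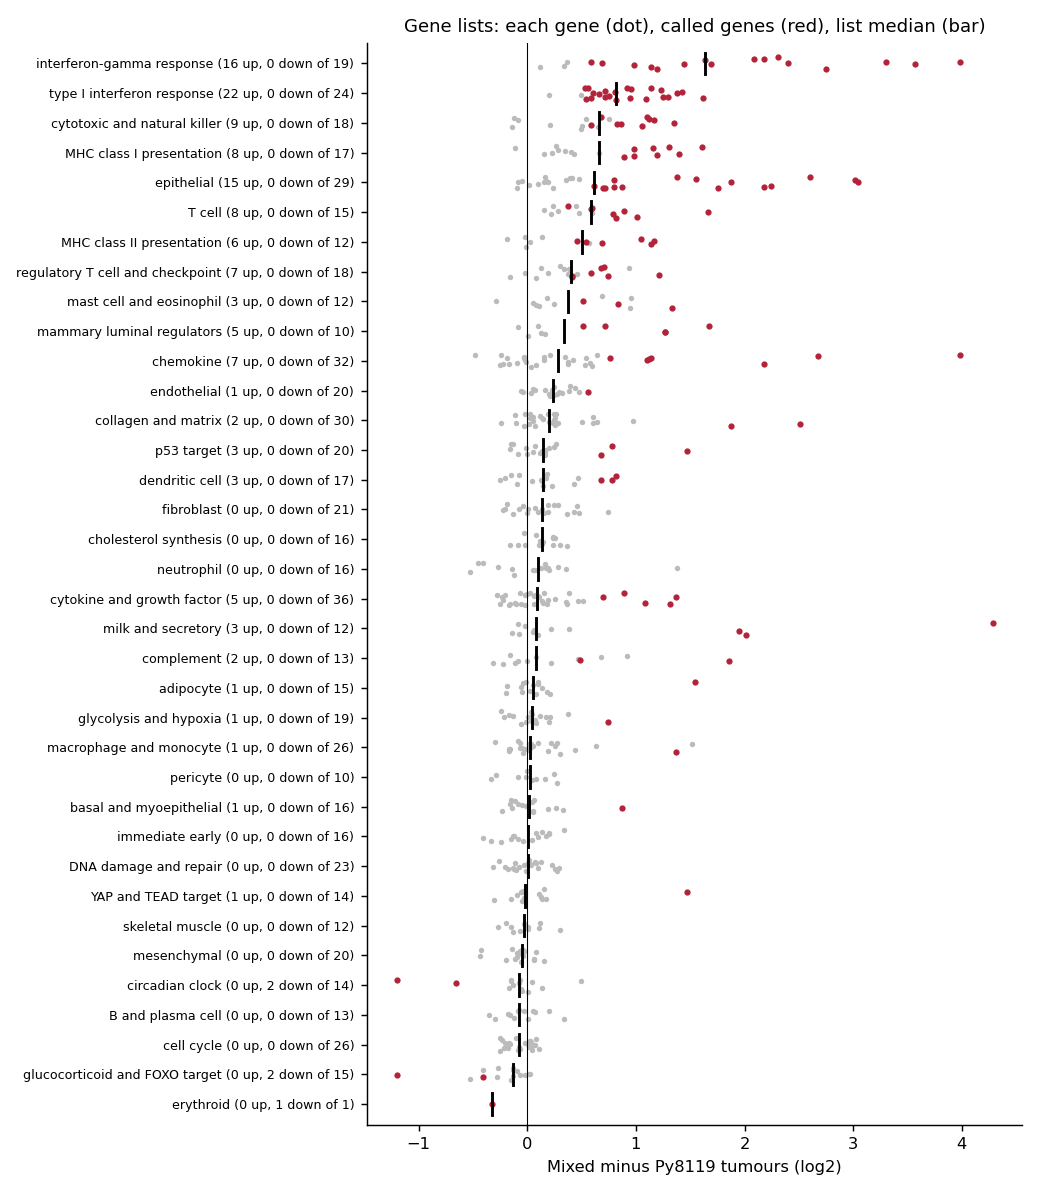
Each dot is a measured gene of a list, placed by its mixed minus Py8119 tumour difference (log2), with called genes in red, other genes in grey and the list median as a bar. Interferon, cytotoxic, MHC, epithelial and T cell lists lie at the top, the interferon-gamma list has the highest median (1.64), and mesenchymal, cell cycle and clock genes have medians below 0. The median over all genes is -0.03.

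Chemokines and cytokines were called gene by gene. Of 32 chemokines, 7 were higher and the median was 0.28. Ccl8, a monocyte chemokine, had levels of 10.30, 10.96, 12.06, 9.89 and 9.06 in mixed and 7.11, 7.04, 7.50, 8.75 and 8.49 in Py8119 tumours (2.68 ± 0.48, adjusted p = 0.00519). Cxcl10 had levels of 9.08, 9.61, 10.80, 9.85 and 9.35 against 7.31 to 7.74 (2.18 ± 0.24) and Cxcl11 was higher by 1.14 ± 0.23, so all 3 CXCR3 ligands were higher. Cxcl10 and Ccl5 were the 2 Py8119 culture genes that were higher in mixed tumours. Cxcl10 had 8.06 in Py8119 culture and 5.98 in Py117 culture. The lower Py8119 culture gene was Pdpn, a mucin-type membrane glycoprotein (-0.42). Ccl2 (0.42 ± 0.15, adjusted p = 0.159), the neutrophil chemokine Cxcl1 (0.08) and Cxcl5 (0.37) were not called. Of 36 cytokines and growth factors, 5 were higher, the death ligand Tnfsf10 (1.37 ± 0.14), the alarmin Il33 (1.32 ± 0.32, adjusted p = 0.0388), Il1b (1.09 ± 0.20), the B cell factor Tnfsf13b (0.89 ± 0.12) and Tnf (0.69). Il33 was called without mixed tumour 1, 3 or 5 but not without any other single array. Csf1 (-0.10 ± 0.10) and Csf3 (-0.07 ± 0.11), the macrophage and granulocyte growth factors, were not called.

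Macrophage identity genes had almost no calls. Of 26 macrophage and monocyte genes, 1 was higher, the monocyte marker Ly6c2 (1.37 ± 0.35, adjusted p = 0.046), and the median was 0.02. Without mixed tumour 2, 3 or 4 or Py8119 tumour 1, 2, 3 or 5 the count was 0, and without mixed tumour 1 it was 2. Adgre1, which encodes F4/80, had levels of 9.62 to 10.14 in mixed and 9.71 to 10.10 in Py8119 tumours (-0.05 ± 0.11). Csf1r (0.01 ± 0.11), C1qa (0.04 ± 0.11), Msr1 (-0.07 ± 0.09) and Arg1 (0.05 ± 0.24) also overlapped. Other myeloid genes are named here because they were higher, so they make up no group. The Fc receptor Fcgr4 was higher by 1.98 ± 0.25, Slamf8 by 1.82 ± 0.25, Acod1, which makes itaconate, by 1.30 ± 0.28 and Cybb, the NADPH oxidase subunit, by 0.88 ± 0.10. Acod1 was not called with an intensity trend and robust prior (adjusted p = 0.0615) or in the fit of 15 tumour arrays (adjusted p = 0.0655).

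Of 17 dendritic cell genes, 3 were higher (Bst2, Itgax and Irf8, by 0.82, 0.78 and 0.68), and 5 were without mixed tumour 1. Itgax was not called without mixed tumour 2, 3 or 4 or Py8119 tumour 1, 2 or 3, nor Irf8 without Py8119 tumour 5. With the mean of all probe sets, Irf8 differed by 0.24 (adjusted p = 0.245). None of the 3 was called in the fit of 15 tumour arrays. Of 12 mast cell and eosinophil genes, 3 were higher, including the carboxypeptidase Cpa3 (1.33 ± 0.27), and 1 was without mixed tumour 3, Py8119 tumour 1 or Py8119 tumour 5. None was in the fit of 15 tumour arrays, and Cpa3 was not called with an intensity trend and robust prior either (adjusted p = 0.0589). For 13 B and plasma cell genes and 16 neutrophil genes the counts were 0 in each direction, with medians of -0.08 and 0.10, and 1 neutrophil gene was higher without mixed tumour 5 or Py8119 tumour 4. Of 13 complement genes, 2 were higher, the alternative pathway factor Cfb (1.86 ± 0.29) and the protease C1s1 (0.48 ± 0.11), the latter not without mixed tumour 2 or Py8119 tumour 3, 4 or 5. With the mean of all probe sets C1s1 differed by 0.30 (adjusted p = 0.0706), and it was not called with the replicate number as a block (adjusted p = 0.0602) or in the fit of 15 tumour arrays.

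Vessel and connective tissue lists showed small shifts. Of 20 endothelial genes, 1 was higher, Cdh5, which encodes VE-cadherin (0.56 ± 0.12, adjusted p = 0.0154), while 2 were without mixed tumour 1 and 3 without Py8119 tumour 4. Of the 20 differences, 18 were above 0, with a median of 0.24, against 9264 of 22180 and -0.03 over all genes. The levels of Emcn (0.47 ± 0.14) and Kdr (0.44 ± 0.13) did not overlap between groups although neither was called. None of 21 fibroblast genes (median 0.14) and none of 10 pericyte genes (median 0.02) was called. The mean level of the fibroblast list ran from 8.16 to 8.79 in mixed and from 8.04 to 8.84 in Py8119 tumours. Of 30 collagen and matrix genes, Timp3 and the collagenase Mmp13 were higher, with a list median of 0.20. Mmp13 had 9.29 in mixed tumour 3 and 6.30 to 6.92 in the other mixed tumours (1.88 ± 0.43, adjusted p = 0.027), and it was not called when Py8119 tumour 1, 2, 3 or 4 was left out. Of 15 adipocyte genes, Thrsp, a lipogenic regulator, was higher (1.54 ± 0.22), with levels of 6.59 to 7.34 against 4.82 to 6.20 and a Py117 tumour mean of 10.60. The adipocyte mean ranged from 6.10 to 6.38 in mixed and 5.94 to 6.43 in Py8119 tumours, against 6.61 to 8.42 in Py117 tumours. The part of fat pad tissue in other differences was not tested. None of 12 skeletal muscle genes was called (median -0.03).

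Mesenchymal genes had no call. Their mean level was 9.24 in Py8119 and 8.22 in Py117 culture, but not every member was higher in Py8119 tumours. Tagln had means of 7.10 in Py117 and 6.43 in Py8119 tumours, and Tgfb1i1 6.85 and 6.05. None of 20 was called, where 0.500% of all genes were called lower. Of the differences, 4 were above 0 and the median was -0.05, against 9264 of 22180 and -0.03 over all genes. Without Py8119 tumour 4, 1 gene was lower. The list mean was 8.96, 9.10, 9.09, 9.06 and 9.08 in mixed tumours and 9.10 to 9.21 in Py8119 tumours. Before rounding every mixed tumour lay below every Py8119 tumour, by a narrow margin. Vim, the intermediate filament gene, had levels of 12.91, 12.92, 12.88, 12.95 and 13.08 in mixed and 13.06 to 13.13 in Py8119 tumours (-0.14 ± 0.07, adjusted p = 0.294). Axl, a receptor kinase (-0.03 ± 0.07), Cdh2, which encodes N-cadherin (-0.06 ± 0.08), and S100a4 (-0.05 ± 0.12) overlapped between groups. Cell cycle genes (0 of 26 called, median -0.08), DNA repair genes (0 of 23, median 0.00), cholesterol synthesis genes (0 of 16, median 0.14) and immediate early genes (0 of 16, median 0.01) had no call, and Mki67 had a difference of 0.10 ± 0.10. Of 20 p53 targets, Perp, Fas and Trp53inp1 were higher (1.47, 0.78 and 0.68). Perp, a desmosomal protein, had 11.34 in Py117 and 7.77 in Py8119 culture. Of 14 YAP and TEAD targets, tissue factor F3 was higher (1.47 ± 0.19), and of 19 glycolysis and hypoxia genes the oxygen sensor Egln3 was (0.75 ± 0.19, adjusted p = 0.0481), in the latter case not after quantile normalization, with array medians centred, or without mixed tumour 2 or 5 or any Py8119 tumour. The only erythroid gene measured of 8 listed, the anion exchanger Slc4a1, was lower (-0.33 ± 0.08, adjusted p = 0.0388), and the call was lost when any single array other than mixed tumour 1 was left out.

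Few genes were lower, and the largest fall was that of a clock gene. Per1, a repressor of the circadian clock that glucocorticoids also induce, had levels of 8.45, 8.34, 7.89, 8.47 and 8.65 in mixed and 10.55, 9.14, 8.95, 9.33 and 9.84 in Py8119 tumours (fell by 1.20 on the log2 scale, SE 0.25, adjusted p = 0.0154). Py117 tumours lay at 9.97 to 10.49, so all mixed tumours were below both unmixed groups. With an intensity trend and a robust prior Per1 was not called, and its adjusted p ranged from 0.00323 to 0.0631 over the alternatives. Nr1d1, the clock repressor REV-ERB alpha, had levels of 8.54, 8.56, 7.96, 8.65 and 8.53 against 8.91 to 9.29 (-0.66 ± 0.12, adjusted p = 0.00764), with a Py117 tumour mean of 7.87. Of 14 clock genes only these 2 were called, and the median was -0.08. Uncalled members included Arntl (-0.05 ± 0.09), Dbp (-0.15 ± 0.15) and Per3 (-0.13 ± 0.12). The hour at which tumours were taken was not given in the sources used here, and its part in these differences was not tested. Of 15 glucocorticoid and FOXO targets, Per1 and Sgk1 (-0.41 ± 0.10, adjusted p = 0.0396), a kinase, were lower, with a list median of -0.13. The call of Sgk1 was lost when any single array other than Py8119 tumour 4 was left out.

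Lower genes outside the lists differed by less. Depp1, a FOXO target, differed by -0.63 ± 0.11, the divalent cation tolerance homologue Cuta by -0.62 ± 0.14, the leukotriene synthase Ltc4s by -0.60 ± 0.14 and Mapk11, the kinase p38 beta, by -0.52 ± 0.12. Without mixed tumour 2 or Py8119 tumour 2 neither Cuta, Ltc4s nor Mapk11 was called, and each was also lost without 2 or 3 other single arrays. Mapk11 was 8.97 in Py8119 culture and 7.05 in Py117 culture. Fat3 (-0.61 ± 0.09) and Cyp2a12 (-0.61 ± 0.13) had both tumour means under background.

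Genes at which mixed tumours lay outside both unmixed groups were rare. For 7 genes (0.0316%) that were called higher, all 5 mixed arrays were above all arrays of both parental tumours, and for 15 (0.0676%) called lower all were below. The widest gap was at Per1, 0.30 between the highest mixed and the lowest parental array. On the upper side the gaps were 0.03 to 0.09. Cd48, a leukocyte surface protein, had levels of 7.99 to 8.45 against means of 7.48 in Py8119 and 7.72 in Py117 tumours (0.67 ± 0.10, adjusted p = 0.00113), and Creld2, a chaperone of the endoplasmic reticulum, 9.46 to 9.75 (0.45 ± 0.08). The lipid kinase Pik3cd (0.37 ± 0.08) and the GTPase Rhoh (0.35 ± 0.09), both known for roles in leukocytes, were also among the 7. Pik3cd was not called without Py8119 tumour 2, and the call of Rhoh was lost without any single array other than mixed tumour 1.

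The 5 mixed tumours also differed among themselves. Mixed tumour 1 was lowest for Py117 culture genes (7.0%), for the epithelial list (mean 6.52, others 6.65 to 6.85) and for the interferon-gamma list (7.85). Mixed tumour 3 had the highest mean of the 5 in 19 of all 36 lists and in 13 of the 15 immune lists, and mixed tumour 4 was the highest in the other 2, the neutrophil and the mast cell lists. Some lists share genes, such as Cxcl9 in the interferon-gamma and chemokine lists, so these counts are not independent. Mixed tumour 3 stood at 15.1% for Py117 culture genes, below mixed tumour 2, and its macrophage mean was 9.68 against 9.18 to 9.29 in the others. Without mixed tumour 3, 16 interferon-gamma, 19 type I interferon and 7 T cell genes were still higher.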

How the data were processed

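RNA from 21 samples was measured on Affymetrix arrays after labelling with the WT PLUS kit, per the labels. The deposited values are log2 signals. RMA and limma are named in the submitters' processing notes, without versions or further settings, and hybridization batches were not given in the sources used here. Of 41345 probe sets, 23521 had 1 gene symbol, 1814 several and 16010 none. Each of 22180 genes was represented by its brightest probe set on average, and 1082 genes had several.

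Mixed and Py8119 tumours were compared with limma 3.58.1 (lmFit and eBayes, R 4.3.3), with the spread from these 10 arrays, and p-values were adjusted by Benjamini-Hochberg over all genes. The cultures were fitted separately in the same way. The fit was tested on simulated data. Tables and plots used Python 3.11.15, pandas 2.3.3 and matplotlib 3.10.9.

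The comparison, gene groups and 36 lists were chosen with earlier results of these data known. Of 711 list entries, 649 were measured, or 647 with repeats of a symbol within a list taken once. By rule, 104 genes were named: the 12 largest differences in each direction, up to 4 called genes a list, 8 at most outside both unmixed tumour groups on either side, and 16 chosen in advance. Another 66 were added after values were seen. Alternatives covered normalization, filters, priors, weights, a joint fit and left-out arrays.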

Additional observations from a re-analysis of the deposited data

Results flagged for a closer look

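Within groups of 5 arrays, 340 gene and group combinations were screened for 1 array far from the other 4 by Dixon's criterion, and 27 passed. Chance passes about 1 in 20. Mixed tumour 3 was the far array in 12 of them. It was the highest mixed tumour for Gzma (8.86), Ccl5 (11.14), Icos (7.15), Bst2 (11.60), Usp18 (9.16), Ifit1 (8.92), Mmp13 (9.29), Ccl2 (10.68), the luminal regulator Elf5 (5.45) and the milk protein Wap (5.72), and the lowest for Nr1d1 (7.96) and Kank3 (7.01). Mixed tumour 1 was lowest for Esrp1 (7.32) and Foxa1 (6.85), the array that was also lowest for Py117 culture genes.

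Mixed tumour 4 was highest for Foxp3 (6.05) and lowest for Dll3 (4.02), and mixed tumour 5 was highest for Arntl (8.79). Among Py8119 tumours, tumour 1 was lowest for Capn6 (5.54), Ccl5 (8.84), Csf3 (5.00) and Slamf8 (5.93), and the remaining far values were Scrg1 (4.10), Tnfsf10 (5.42), Pdcd1 (5.30), Pgr (4.61), Pdia6 (11.32) and Ddit3 (7.07). Several of these values lie under or near background, among them those of Dll3, Scrg1, Pgr, Csf3 and Pdcd1.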

How the results depend on the processing

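The counts moved with several settings. Genes called higher (643) were 358 in 1 fit of 15 tumour arrays and 366 at an adjusted p of 0.01. Genes called lower (111) were 216 after quantile normalization, 297 with centred medians, 179 among genes above the median signal, 198 with an intensity trend and robust prior, 179 with array weights, 36 in the fit of 15 arrays and 14 at 0.01. The cause of these shifts was not tested, other than by the stricter threshold itself. Genes silent in culture called higher (69) were 39 in the fit of 15 arrays and 41 at 0.01, and genes called between the cultures (3208 higher and 2734 lower in Py8119) were 1935 and 1718 at 0.01. Of Py117 culture genes 52.4% were called higher, and 30.1% with a culture step of 1 log2 unit. That step gave 938 genes, including those under background in both cultures. The place of Py117 culture genes was 28.6% on the log2 scale. Leaving out single arrays gave 485 to 686 higher and 45 to 146 lower genes, 148 to 177 Py117 culture genes, 50 to 69 genes silent in culture and places of 12.2% to 14.6%.

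With the replicate block the counts were 530 higher and 45 lower, with 160 Py117 culture genes. Same-numbered tumours did not deviate together (r of -0.23 to -0.03 and none best with its own number), so the numbers were not taken as pairs. Of 118 called genes named in the text or by rule, 67 stayed called in each of the 19 alternatives that included them, and none changed direction. Named genes of low signal were absent from the alternative with genes above the median signal only. At 0.01 the higher calls dropped to 4 T cell, 3 cytotoxic, 3 regulatory, 3 MHC class II, 4 chemokine, 3 cytokine, 1 dendritic cell, 1 matrix and 1 complement genes and to 0 mast cell, macrophage, endothelial and glycolysis genes, and the lower calls to 1 clock and 0 glucocorticoid or erythroid genes. In the fit of 15 arrays cytokines dropped to 2, complement to 1, and dendritic, mast, macrophage, endothelial, glycolysis and erythroid genes to 0. Signals near background, which bound fold changes, and 5 arrays a group limit what these counts can show.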

Other observations

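Chaperones of the endoplasmic reticulum were looked at after Creld2 had been seen above both unmixed groups. Of 14 genes of protein folding and its stress response, 5 were higher in mixed tumours by limma, against 2.90% of all genes. Creld2, which led to the group, is among the 5. They were Sdf2l1 (0.52 ± 0.09, SE, adjusted p = 0.00275), Dnajc3 (0.55, adjusted p = 0.00609), Creld2 (0.45, adjusted p = 0.0074), Hyou1 (0.45, adjusted p = 0.0319) and Dnajb11 (0.43, adjusted p = 0.0406). Hyou1 and Dnajb11 were each lost when any of several single arrays was left out, among them mixed tumours 2 and 3 and Py8119 tumours 1 and 2. Hspa5, which encodes BiP (0.28, adjusted p = 0.0941), Hsp90b1 (0.25), Pdia6 (0.31), Calr (0.26), Manf (0.18) and Herpud1 (0.25) were not called, although Hspa5 and Pdia6 were without Py8119 tumour 4. The stress transcription factors Atf4 (0.09) and Ddit3 (0.20) and the chaperone Dnajb9 (0.00) were not called. The group was picked on these samples, so its count is a description.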
